A study of Mus musculus with 23 samples.

Results

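Small intestinal RNA of 2 groups of A100-FMT mice, called set 1 and set 2 after the number in their sample codes, was compared as 3 mice against 3, which are 6 of the 23 libraries of the series. The meaning of the code that separates the sets is not given in the sources used here, so set 1 and set 2 are only names and the difference between them has no stated cause. All 6 recipients were ICR mice, an outbred strain, that had been given busulfan, an alkylating drug that depletes germ cells and blood stem cells. They then received fecal microbiota transplantation (FMT), here the pooled contents of the small intestine of donor mice that had been fed alginate oligosaccharides (AOS) at 100 mg/kg, so the donors of a group did not enter as separate mice. In Con-FMT and A10-FMT, each also with 3 mice in set 1 and 3 in set 2, the recipients had the same drug and the donors had been fed water or AOS at 10 mg/kg. By the study's methods, male mice were given a single dose of busulfan of 40 mg/kg at 3 weeks of age, FMT by gavage for 1 week, and were killed at 5 weeks. The sample records give neither age nor duration, and it is not stated for which set these times hold.

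Expression was given as FPKM, fragments per kilobase of transcript scaled to the mapped fragments of the library, in 1 library per mouse. The summed FPKM of the 6 libraries lay between 557083 and 596296, and 14.9% to 18% of the 19215 entries were listed at 0. Over the 11349 genes tested, libraries of the same set correlated at r = 0.982 to 0.990 and libraries of different sets at r = 0.980 to 0.986, so the sets were nearly as alike as the mice within them. The tissue label was checked against marker genes. Vil1, which encodes the microvillus protein villin, lay between 592 and 746 FPKM in all 6 libraries, and 12 of 13 enterocyte markers were tested. All 8 genes of enteric neurons and glia found in the table (of 11 listed) and all 5 of neutrophils (of 10 listed) lay under 1 FPKM, as did 8 of 11 of smooth muscle, 10 of 11 of fibroblasts and endothelium and 13 of 15 of B cells and plasma cells. The summed FPKM of T cell and intraepithelial lymphocyte markers was 66.6 to 122 in set 1 and 50.2 to 125 in set 2, and that of smooth muscle markers 71.6 to 82.0 and 72.8 to 79.0, so both overlapped between the sets. None of the tested markers of immune cells, muscle, fibroblasts, fat, blood, tuft cells, colon or pancreas was called, with 1 of them, of smooth muscle, at an unadjusted p under 0.05.

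The small intestinal epithelium is renewed from dividing cells in the crypts. Their offspring move onto the villi, where enterocytes stop dividing and build a brush border with hydrolases and transporters for sugars, peptides, fat and minerals. Epithelial cells also answer interferons, which act through STAT2 and IRF9 on interferon-stimulated response elements (ISRE) and switch on antiviral genes.

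A total of 363 of 11349 genes passed the test between the sets in A100-FMT (3.2%), 133 higher in set 1 (1.17%) and 230 lower (2.03%). Differences were small. The median log2 difference (set 1 minus set 2, on log2(FPKM + 1)) was 0.32 for the genes called higher and -0.25 for those called lower, against -0.03 for all genes tested. In 133 of 133 and 230 of 230 called genes the 3 values of one set did not overlap the 3 of the other. Of all genes tested, 10% had no overlap and were higher in set 1, and 17.7% had no overlap and were lower. A log2 difference beyond 1 was found in 4 called genes, which are transcript models of the authors with no gene symbol. Of these, BGI_novel_G000702 was at 22.9, 33.6 and 8.26 FPKM in set 1 and at 0.16, 0 and 0.13 FPKM in set 2, and BGI_novel_G000700 was at 1.46, 0.01 and 2.18 FPKM in set 1 and at 30.3, 26.9 and 19.2 FPKM in set 2.

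**Figure D1:**
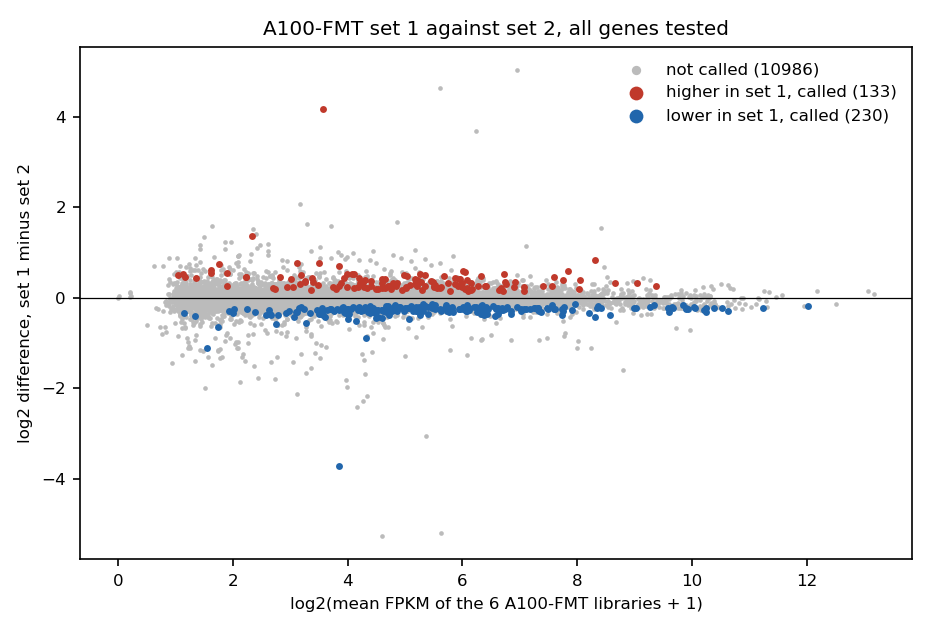
Each dot is 1 of the 11349 genes tested, with the log2 of the mean FPKM of the 6 A100-FMT libraries (1 added) on the x axis and the log2 difference of set 1 minus set 2 on the y axis. The 133 genes called higher (red) and the 230 called lower (blue) lie mostly close to the 0 line.

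The number of calls rested on the fit. The smallest adjusted p was 0.0247, against a threshold of 0.05. Without replicate 1 or replicate 2 of set 1, or without replicate 1 of set 2, 0 genes were called by limma, although 2024, 2049 and 2180 genes had an unadjusted p under 0.05, and without the other libraries 221 (replicate 3 of set 1), 156 (replicate 2 of set 2) and 9 genes (replicate 3 of set 2) were called. The split between higher and lower depended on the scaling: it was 133 against 230 on the deposited values, 176 against 56 with trimmed-mean scaling, 183 against 104 with quantile normalization, and 213 against 140 with GC content and transcript length taken out. Values in each library and directions are therefore given first below, and calls second.

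**Figure D2:**
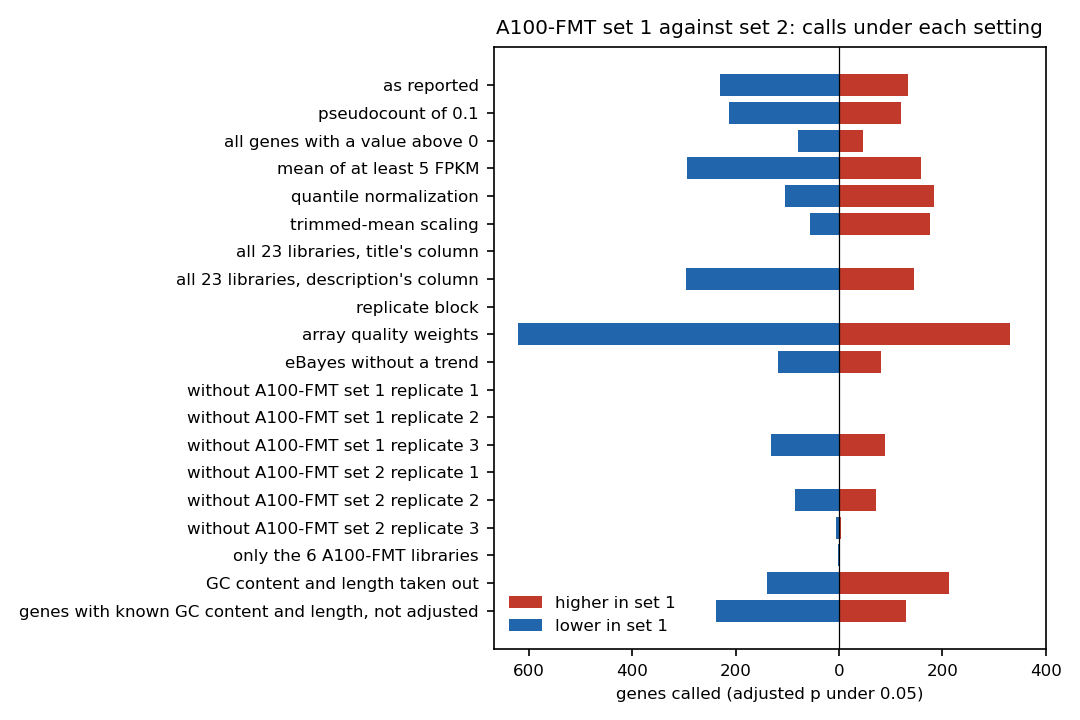
Bars give the number of genes called higher (red, to the right) and lower (blue, to the left) in set 1 of A100-FMT, with 1 row for each setting; a row with no bar had 0 calls. The 363 calls as reported fell to 0 in 5 settings and reached 950 with array quality weights.

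Antiviral genes that interferons induce were higher in set 1. Of 41 tested members of the list, 17 were called higher and 0 lower, where 1.17% of all genes were called higher. In 28 of the 41 the sets did not overlap and set 1 was higher, against 10% of all genes, and 40 of 41 differences lay above 0, with a median of 0.26. Leaving out replicate 3 of set 1 or replicate 2 of set 2 left 10 members called, leaving out replicate 3 of set 2 left 2, and leaving out any other library left 0, while the median stayed between 0.25 and 0.32. In bulk tissue, more cells of a type and more RNA per cell cannot be told apart. Ifit1bl1, of the IFIT family of RNA-binding antiviral proteins, was at 244, 273 and 306 FPKM in set 1 and at 160, 188 and 193 FPKM in set 2. Every mouse of set 1 was above every mouse of set 2, a log2 difference of 0.60 (SE 0.14, limma adjusted p = 0.0398). Ifit1bl2 of the same family was at 18.6, 19.3 and 15.2 FPKM against 10.2, 13.4 and 12.4 FPKM, with a log2 difference of 0.52 (SE 0.11, adjusted p = 0.0323). The IFIT genes resemble each other, and how reads shared between them were counted is not given.

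Other called members of the list, all but Herc6 named after their values were seen, belong to the signalling complex and to its targets. Stat2, which encodes the signal transducer of type I and type III interferons, was at 40.8, 39.6 and 42.6 FPKM in set 1 and at 29.5, 29.4 and 34.1 FPKM in set 2. Its DNA-binding partner Irf9 was at 34.4, 31.3 and 35.2 FPKM against 27.9, 29.5 and 29.0 FPKM. Both were higher in every mouse of set 1, by 0.39 (SE 0.07, adjusted p = 0.0247) and 0.22 (SE 0.05, adjusted p = 0.035) on the log2 scale. Ifit1 was at 64.4, 60.4 and 74.5 FPKM in set 1 and at 45.7, 48.6 and 52.3 FPKM in set 2. Parp14, an ADP-ribosyltransferase, was at 61.7, 55.9 and 57.4 FPKM against 39.6, 39.6 and 46.1 FPKM. Herc6, a ligase that attaches the ubiquitin-like ISG15 to proteins in mice, was at 21.6, 17.0 and 19.5 FPKM against 12.4, 14.1 and 13.0 FPKM. None of these 3 overlapped between the sets. The remaining called members were Oasl2, Cmpk2, Trim30a, Zbp1, Parp9, Parp12, Dtx3l, Ifi44 and the RNA sensors Ddx58 (RIG-I) and Ifih1 (MDA5), with log2 differences from 0.20 (Parp9) to 0.39 (Oasl2).

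The members with the highest level did not pass the test. Lgals9, which encodes galectin-9, was at 1075, 957 and 938 FPKM in set 1 and at 920, 972 and 848 FPKM in set 2, and Irf7, a transcription factor that amplifies the response, was at 254, 260 and 232 FPKM against 193, 249 and 211 FPKM. In both the sets overlapped, with adjusted p = 0.383 and adjusted p = 0.312. The listed interferon-inducible GTPases, which attack membranes around pathogens, had a median of 0.29 with 15 of 16 above 0. Limma called none of these 16 (6 at an unadjusted p under 0.05). In 2 of 16 the sets did not overlap and set 1 was higher, a share near the 10% of all genes. Irgm1 was at 128, 105 and 108 FPKM against 91.2, 94.2 and 100 FPKM (adjusted p = 0.129), and Igtp at 37.5, 30.2 and 26.2 FPKM against 26.4, 21.7 and 25.2 FPKM (adjusted p = 0.165). The listed genes of MHC class I and peptide loading, many of which interferon also induces, had a median of 0.01 with 14 of 26 above 0. None of these 26 was called higher. Psme1, a proteasome activator subunit, was the 1 of 26 called lower, where 2.03% of all genes were called lower. It was at 324, 301 and 295 FPKM in set 1 and 330, 345 and 364 FPKM in set 2 (limma adjusted p = 0.0486). Psme1 was not called with trimmed-mean scaling, with GC content and length taken out or with any 1 library left out. The most abundant member of this list, B2m, was at 1399, 1416 and 1376 FPKM against 1303, 1290 and 1103 FPKM. It was higher in every mouse of set 1 but not called (limma adjusted p = 0.145). MHC class II genes, of which 6 were tested, had a median of -0.01.

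The stretches before the start sites of 5 called antiviral genes are shown because they hold the core of the ISRE, searched as GAAA, 2 bases of any kind and GAAA again, on both strands, in the 250 bases before each start site. They are printed 5′ to 3′ on the strand of the gene, from RefSeq on GRCm38.p6, with the matches in capitals; where the capitals begin with TTTC the match is on the other strand. They are Ifit1 at chr19:34640740-34640839 (+ strand), Ifit1bl2 at chr19:34640759-34640858 (- strand), Ifit1bl1 at chr19:34599428-34599527 (- strand), Stat2 at chr10:128270248-128270347 (+ strand) and Trim30a at chr7:104465194-104465293 (- strand).
Ifit1: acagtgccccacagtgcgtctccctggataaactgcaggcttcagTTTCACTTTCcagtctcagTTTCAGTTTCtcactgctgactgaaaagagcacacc
Ifit1bl2: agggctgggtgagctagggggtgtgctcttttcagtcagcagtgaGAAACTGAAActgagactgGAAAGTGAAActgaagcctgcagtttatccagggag
Ifit1bl1: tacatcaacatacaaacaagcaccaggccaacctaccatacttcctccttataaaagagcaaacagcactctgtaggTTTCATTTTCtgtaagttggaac
Stat2: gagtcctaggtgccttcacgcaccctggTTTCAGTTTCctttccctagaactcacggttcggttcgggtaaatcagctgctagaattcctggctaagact
Trim30a: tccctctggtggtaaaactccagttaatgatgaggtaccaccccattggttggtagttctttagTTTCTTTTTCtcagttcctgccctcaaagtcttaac

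Ifit1 and Ifit1bl2 lie head to head: their printed stretches share 81 bases, and the 2 matches before Ifit1 are the 2 before Ifit1bl2, read from the other strand. A match was found before 5 of the 14 called antiviral genes for which RefSeq gave a stretch, before 14 of 32 members of the list, and before 9 of 10 interferon-inducible GTPases. Among all 27025 genes with a stretch it was 3.46%. A match describes these letters only.

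Genes of the absorptive enterocyte tended to be higher in set 1. In the brush-border list, 29 of 32 tested members lay above 0 with a median of 0.24, the sets did not overlap and set 1 was higher in 22 of 32, against 10% of all genes, and 3 were called higher and 0 lower, where 1.17% of all genes were called higher. The 3 calls became 2 without replicate 3 of set 1 and 0 without any of the other 5 libraries. Dpp4, a peptidase that removes dipeptides, was at 74.8, 83.5 and 68.8 FPKM in set 1 and at 58.3, 60.0 and 53.9 FPKM in set 2. Asah2, a neutral ceramidase, was at 36.9, 37.9 and 33.7 FPKM against 28.5, 24.1 and 22.9 FPKM. Vil1 was at 746, 733 and 674 FPKM against 606, 592 and 593 FPKM. None of the 3 overlapped, and the log2 differences were 0.39 (SE 0.09, adjusted p = 0.0414), 0.51 (SE 0.13, adjusted p = 0.0472) and 0.26 (SE 0.06, adjusted p = 0.0381). The most abundant member, the aminopeptidase Anpep, was at 1654, 1664 and 1516 FPKM against 1332, 1334 and 1246 FPKM, also with no overlap, and just missed the threshold (adjusted p = 0.0578). In the list of enterocyte markers the median was 0.30 with 11 of 12 above 0. Most of these markers are also members of the brush-border, fat uptake or sugar transport lists, so these lists repeat the same genes in part. Krt20, a keratin of differentiated epithelium, was called at 584 ± 11.98 FPKM (SD, n = 3) in set 1 and 462 ± 20.0 FPKM (SD, n = 3) in set 2.

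Fat uptake and chylomicron assembly had 4 of 32 tested members called, all higher in set 1, where 1.17% of all genes were called higher. In 12 of 32 the sets did not overlap and set 1 was higher, against 10% of all genes. The differences lay above 0 in 28 of 32, with a median of 0.17. Without replicate 3 of set 1 the list had 4 calls, and without replicate 2 of set 2 it had 2. It had 0 without any of the other 4 libraries. Apob, the structural protein of the chylomicron, was at 129, 123 and 122 FPKM in set 1 and at 92.8, 85.5 and 79.1 FPKM in set 2, and Npc1l1, the cholesterol importer, was at 132, 139 and 130 FPKM against 107, 110 and 97.5 FPKM. Mttp, which loads lipid onto Apob, was at 475, 445 and 430 FPKM against 368, 319 and 385 FPKM, and Sar1b, of the vesicle coat that carries chylomicrons out of the endoplasmic reticulum, at 142, 155 and 135 FPKM against 120, 118 and 129 FPKM; both were chosen after their values were seen. In each of the 4 every mouse of set 1 was above every mouse of set 2, with log2 differences of 0.54 (Apob), 0.34 (Npc1l1), 0.34 (Mttp) and 0.23 (Sar1b). The most abundant members did not separate the sets. Apoa1, the main protein of high-density lipoprotein, was at 2515, 3266 and 2385 FPKM in set 1 and at 2073, 2824 and 2532 FPKM in set 2, and Fabp2, an intracellular fatty acid carrier, at 1687, 1958 and 1564 FPKM against 1289, 1384 and 1594 FPKM.

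Transporters were called in 1 direction. Slc9a3, the sodium-proton exchanger of the brush border, was at 92.6, 77.3 and 60.7 FPKM in set 1 and at 47.6, 58.4 and 45.1 FPKM in set 2, a log2 difference of 0.59 (SE 0.15, adjusted p = 0.0455). Slc34a2, which takes up phosphate with sodium, was at 41.1, 48.8 and 42.3 FPKM against 31.4, 31.2 and 28.3 FPKM, a difference of 0.52 (SE 0.09, adjusted p = 0.0247). Heph, the ferroxidase that helps iron leave the enterocyte, was at 42.4, 40.8 and 40.9 FPKM against 33.4, 29.9 and 31.2 FPKM. Clca4b, of a family of chloride channel regulators, was at 290, 314 and 297 FPKM against 222, 239 and 224 FPKM, and shares sequence with other members of its family, so that its count is uncertain. Slc7a7, which exports basic amino acids, was at 84.8, 87.2 and 78.3 FPKM against 68.1, 70.5 and 68.8 FPKM. In all 5 set 1 was higher without overlap. Of the whole lists, 3 of 28 mineral, acid and water transporters were called (the third is the carnitine transporter Slc22a5). In calcium, iron and mineral absorption 2 of 19 genes were called, and in amino acid and peptide transport 1 of 19. All were higher, where 1.17% of all genes were called higher, and the list medians were 0.09, 0.00046 and 0.18. Each list had 0 calls without replicate 1 or 2 of set 1 or replicate 1 or 3 of set 2. The lists had 1, 2 and 2 calls without replicate 3 of set 1, and 2, 2 and 0 without replicate 2 of set 2. Genes of sugar transport and fructose metabolism had no call in 17 (4 at an unadjusted p under 0.05) and a median of 0.09; Slc5a1, the sodium-glucose cotransporter, was at 161, 175 and 149 FPKM against 129, 126 and 136 FPKM (adjusted p = 0.0751), without overlap. Bile acid genes, xenobiotic metabolism and retinoid metabolism had 0 calls by limma in 9, 64 and 15 tested members, with 0, 6 and 0 at an unadjusted p under 0.05 and medians of 0.10, 0.06 and 0.03.

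**Figure D3:**
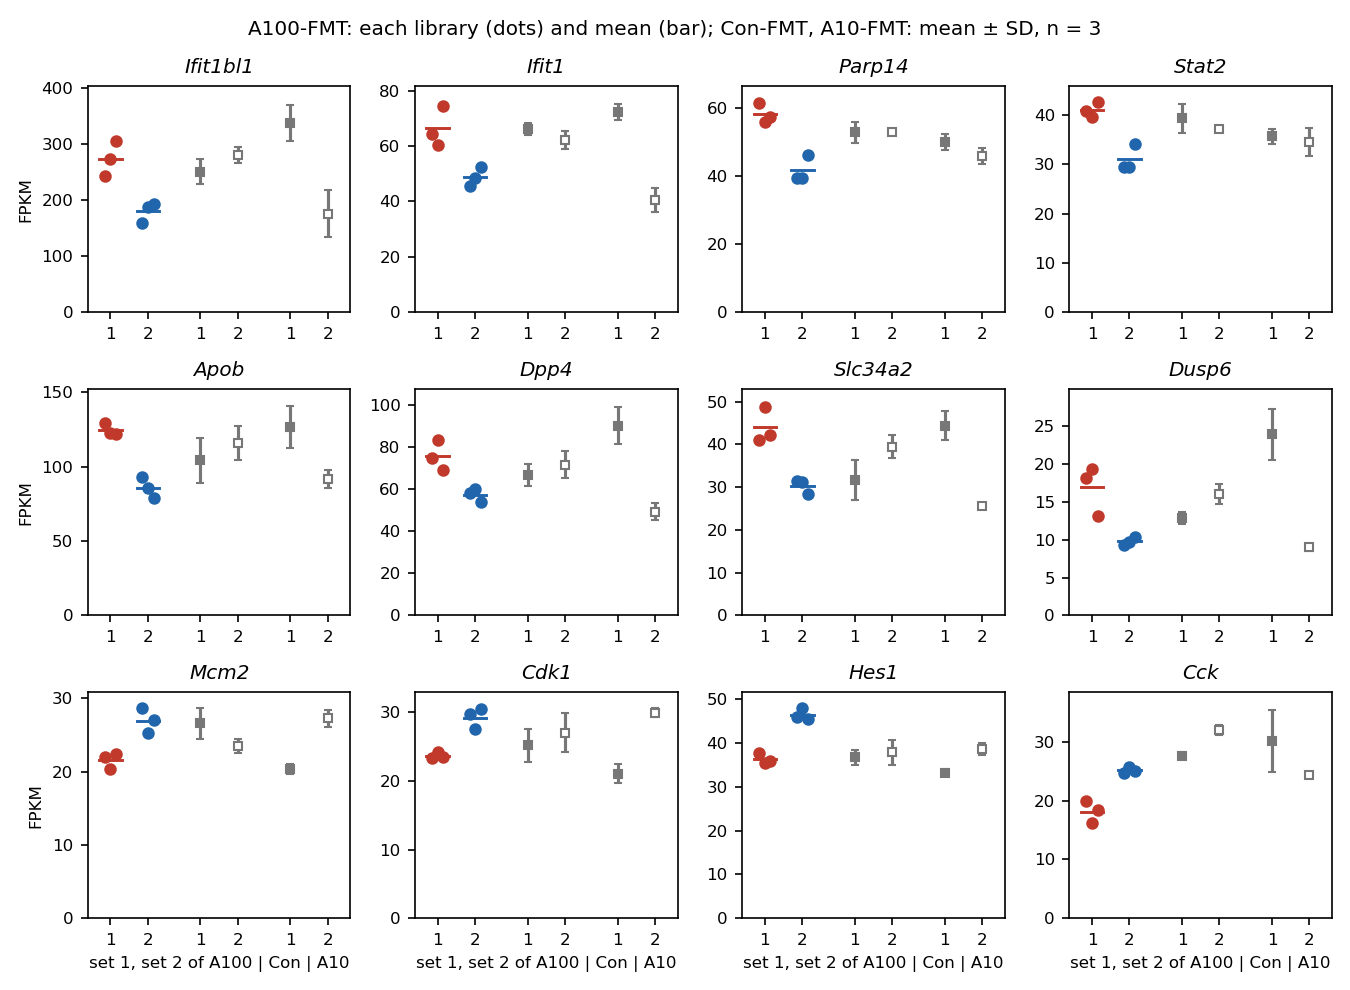
Each panel gives the FPKM of 1 gene on a y axis that starts at 0. Dots are the 3 libraries of A100-FMT set 1 (red) and set 2 (blue) with their mean as a bar, and grey squares are the mean with SD (n = 3) of Con-FMT and A10-FMT, filled for set 1 and open for set 2; in all 12 genes the red and blue dots do not overlap, while the order of the Con-FMT squares is the opposite one in several, such as Slc34a2 and Dusp6.

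Cell cycle genes were lower in set 1. Of 42 tested members of the list of crypt proliferation, 12 were called lower and 0 higher, where 2.03% of all genes were called lower. In 33 of the 42 the sets did not overlap and set 1 was lower, against 17.7% of all genes, and 41 of 42 differences lay below 0, with a median of -0.24. Mcm2, a subunit of the helicase that opens replication origins, was at 21.98, 20.4 and 22.4 FPKM in set 1 and at 28.7, 25.2 and 27.0 FPKM in set 2. Cdk1, the kinase that drives entry into mitosis, was at 23.4, 24.2 and 23.5 FPKM against 29.7, 27.6 and 30.5 FPKM. Neither overlapped, and the log2 differences were -0.31 (SE 0.06, adjusted p = 0.0289) and -0.29 (SE 0.08, adjusted p = 0.0498). The other called members, named after their values were seen, were the helicase subunits Mcm3, Mcm5 and Mcm7, the sliding clamp Pcna, the chromatin remodeller Hells, the tubulin regulator Stmn1, and Cdc20, Ube2c, Aurkb and Tpx2 of mitosis, with log2 differences from -0.28 (Ube2c) to -0.21 (Aurkb). Pcna, the most abundant of them, was at 146, 143 and 147 FPKM against 174, 165 and 172 FPKM. The most abundant members of the list were not called: the histone variant H2az1 was at 331, 359 and 341 FPKM against 378, 382 and 433 FPKM (adjusted p = 0.158), and Tuba1b at 231, 205 and 232 FPKM against 300.2, 279 and 256 FPKM (adjusted p = 0.0572), both lower in every mouse of set 1. Tubb5, singled out for its spread, ran from 0.37 to 29.97 FPKM in set 1 and from 2.82 to 126 FPKM in set 2, and was not called. The 12 calls became 2 with trimmed-mean scaling and 4 with quantile normalization, and 5 without replicate 3 of set 1, 6 without replicate 2 of set 2 and 0 without any of the other 4 libraries. The median stayed between -0.27 and -0.20 with any of the 6 libraries left out.

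Stretches before the start sites of 4 called cell cycle genes are shown because they hold an E2F motif, the mark of many genes of DNA replication, searched as TTCCCGCC, TTGGCGCC, TTCCCGCG or TTTGGCGC on both strands in the same 250 bases. The spellings overlap each other in part. Matches are in capitals, the sequences are from RefSeq on GRCm38.p6, and the strand printed is that of the gene: Cdk1 at chr10:69353037-69353136 (- strand), Mcm5 at chr8:75109314-75109413 (+ strand), Mcm7 at chr5:138171326-138171425 (- strand) and Hells at chr19:38930883-38930982 (+ strand).
Cdk1: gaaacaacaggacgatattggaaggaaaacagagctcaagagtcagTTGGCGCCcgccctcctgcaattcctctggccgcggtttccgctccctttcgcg
Mcm5: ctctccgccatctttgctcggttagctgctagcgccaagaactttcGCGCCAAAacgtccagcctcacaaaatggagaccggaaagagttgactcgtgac
Mcm7: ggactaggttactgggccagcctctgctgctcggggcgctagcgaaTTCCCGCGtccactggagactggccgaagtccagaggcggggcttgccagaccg
Hells: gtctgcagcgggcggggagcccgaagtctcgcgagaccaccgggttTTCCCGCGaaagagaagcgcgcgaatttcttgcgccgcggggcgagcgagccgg

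An E2F match was found before 4 of 9 called cell cycle genes with a stretch and before 8 of 34 members of the list, against 4.03% of all genes with a stretch. A CCAAT box, searched as CCAAT on both strands, stood before 8 of the 9 and 26 of the 34, against 37.5% of all.

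Genes of protein synthesis went with the cell cycle genes in direction. Of 76 tested ribosomal protein genes, 14 were called lower and 0 higher, against 2.03% of all genes called lower, 55 were lower without overlap, against 17.7% of all genes, and 70 lay below 0, with a median of -0.20. Rps26 was at 1377, 1475 and 1383 FPKM in set 1 and at 1720, 1833 and 1648 FPKM in set 2, a log2 difference of -0.30 (SE 0.06, adjusted p = 0.0289), and Rpl21 was at 208, 228 and 219 FPKM against 250, 267 and 270 FPKM, a difference of -0.26 (SE 0.05, adjusted p = 0.0269). The most abundant, Rpl28, was at 2007, 2193 and 2107 FPKM against 2294, 2404 and 2213 FPKM and was not called (adjusted p = 0.131). Ribosomal protein genes have many near-identical pseudogenes, and some members varied widely: Rpl26, singled out for its spread, was at 246, 452 and 29.2 FPKM in set 1 and at 3.09, 3.84 and 3.90 FPKM in set 2. The 14 calls became 2 with trimmed-mean scaling, 3 with quantile normalization, 4 without replicate 3 of set 1, 1 without replicate 2 of set 2 and 0 without any of the other 4 libraries. With the 2 scalings the median stayed below 0, at -0.16 and -0.12. Outside the list, Ncl, the nucleolar protein nucleolin, was at 78.4, 78.2 and 85.6 FPKM against 106, 95.9 and 120 FPKM, lower in every mouse of set 1 (log2 difference -0.40, SE 0.10, adjusted p = 0.0438). The called genes also differed in length: the median length of their longest transcript was 3906 bases for those higher and 2588 bases for those lower in set 1, against 3302 bases for all genes with a known length. With GC content and length taken out, 118 of the 121 genes called higher and 113 of the 218 called lower for which both were known were still called.

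Metabolic genes other than those of absorption showed small differences. In sterol and fatty acid synthesis 35 of 36 tested members lay below 0 with a median of -0.14, 7 were lower without overlap, a share near the 17.7% of all genes, and limma called none (6 at an unadjusted p under 0.05, against 2603 of all 11349 genes). Its most abundant members were Fdps, at 144, 137 and 119 FPKM in set 1 and at 160, 160 and 174 FPKM in set 2, and the desaturase Fads2, at 99.2, 87.6 and 94.5 FPKM against 125, 113 and 90.6 FPKM. Of 76 nuclear-encoded genes of the respiratory chain 2 were called lower, Ndufs7 and Ndufs8 of complex I, a share near the 2.03% of all genes, with a median of -0.07. Neither was called with trimmed-mean scaling, with GC content and length taken out or with any 1 library left out. Ndufs8 was at 142, 146 and 132 FPKM against 159, 161 and 170 FPKM. Fatty acid oxidation and ketogenesis had a median of -0.0023 and 1 of 37 called lower, also a share near the 2.03% of all genes. This was Acot2, a mitochondrial thioesterase, at 2.53, 2.39 and 2.34 FPKM in set 1 against 3.30, 2.95 and 3.27 FPKM. Acot2 was not called with trimmed-mean scaling, with GC content and length taken out or with any 1 library left out.

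**Figure D4:**
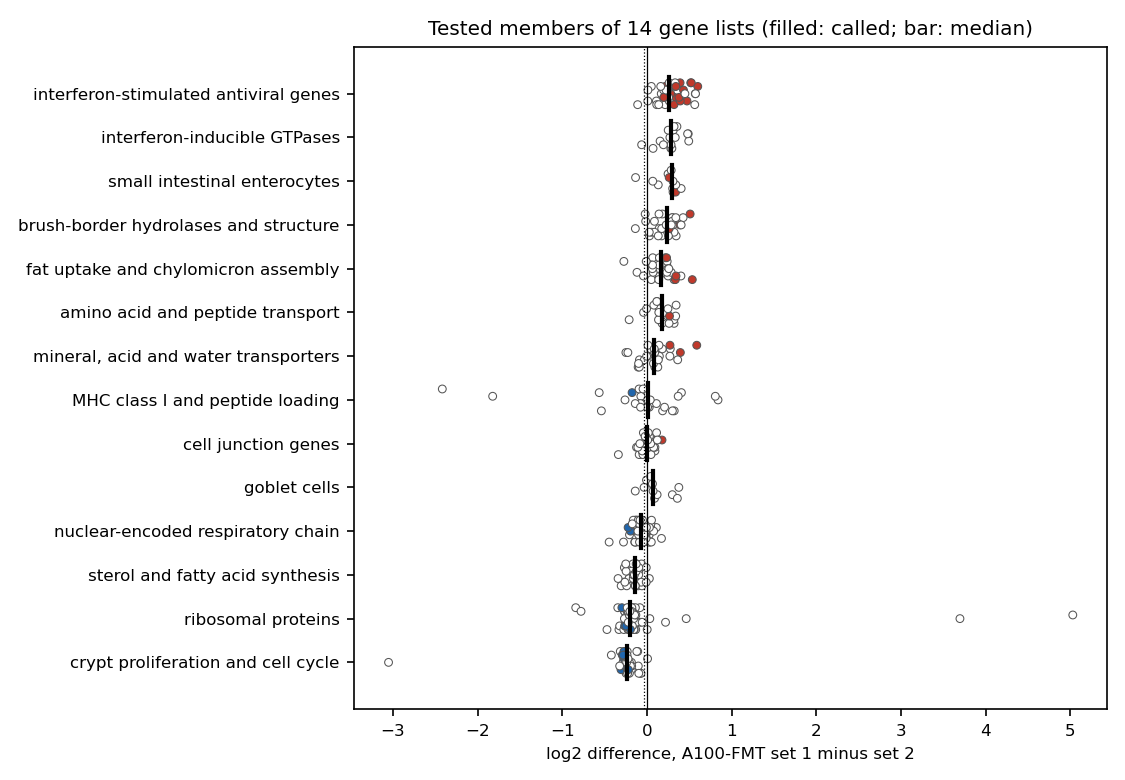
Each dot is the log2 difference of 1 tested gene, set 1 minus set 2 of A100-FMT, in 14 gene lists; filled dots were called (red higher, blue lower), black bars are list medians and the dotted line is the median of all genes tested. Interferon-stimulated genes lie almost wholly to the right and cell cycle genes almost wholly to the left, with Tubb5 and Rpl26 far from the rest of their lists.

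Of 15 tested enteroendocrine genes 2 were called lower, where 2.03% of all genes were called lower. The list had 2 calls without replicate 3 of set 1 and 1 without replicate 2 or 3 of set 2. It had 0 without replicate 1 or 2 of set 1 or replicate 1 of set 2. Cck, the hormone cholecystokinin, was at 19.9, 16.1 and 18.4 FPKM in set 1 and at 24.6, 25.7 and 25.0 FPKM in set 2, lower in every mouse (log2 difference -0.45, SE 0.09, adjusted p = 0.0271). Insm1, a transcription factor of enteroendocrine cells, was at 1.31, 1.12 and 1.13 FPKM against 2.01, 2.0 and 1.65 FPKM (log2 difference -0.40, SE 0.07, adjusted p = 0.0247). The list of enteroendocrine cells as a whole had a median of -0.03 with 9 of 15 below 0. Hes1, a target of Notch that keeps progenitors from the secretory fate, was at 37.7, 35.4 and 35.8 FPKM in set 1 and at 45.8, 47.9 and 45.5 FPKM in set 2 (log2 difference -0.35, SE 0.05, adjusted p = 0.0247), and Nrarp, another Notch target that feeds back on the pathway, at 18.4, 18.8 and 18.8 FPKM against 26.6, 27.5 and 21.9 FPKM (log2 difference -0.41, SE 0.09, adjusted p = 0.0302). In both genes no value of set 1 reached set 2. Hes1 was the only call among 26 tested stem cell and Notch genes, where 2.03% of all genes were called lower. The median of this list was -0.01, and the stem cell zone marker Olfm4 was at 401, 378 and 468 FPKM against 488, 430 and 375 FPKM, with overlap. Goblet cell markers, Paneth cell antimicrobial genes and epithelial defence genes that respond to microbiota had 0 calls by limma in 12, 20 and 26 tested members, with 3, 0 and 7 at an unadjusted p under 0.05 and medians of 0.07, -0.19 and 0.15. Reg3g, an antibacterial lectin, was at 7762, 10420 and 8527 FPKM against 6126, 10520 and 7757 FPKM, the alpha-defensin Defa24 at 4520, 3640 and 3026 FPKM against 4588, 3976 and 3996 FPKM, and Zg16 of goblet cells at 2751, 3367 and 3186 FPKM against 2768, 3205 and 2902 FPKM. The sets overlapped in these 3.

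The other called genes with the largest differences, among those with a symbol and a mean of at least 5 FPKM, had varied roles. Dusp6, a phosphatase that turns off ERK and an immediate early gene, was at 18.1, 19.4 and 13.2 FPKM in set 1 and at 9.30, 9.68 and 10.4 FPKM in set 2 (log2 difference 0.71, SE 0.12, adjusted p = 0.0247), the only call among 27 immediate early genes. Nlrp9b, an intracellular sensor of the intestinal epithelium for viral RNA, was at 8.43, 11.99 and 9.37 FPKM against 3.82, 6.13 and 6.46 FPKM. Npas2 was the only call among 17 circadian clock genes, at 9.98, 11.2 and 11.2 FPKM against 8.86, 8.32 and 7.62 FPKM. Of all genes 1.17% were called higher, so these single calls are not read as results about the 2 lists. With 1 library left out Npas2 was never called. Dusp6 was called only without replicate 3 of set 1 or without replicate 2 of set 2. Gm7030, Cystm1 and Gm5431 were also among the 12 with the largest differences upward, with log2 differences of 0.78, 0.57 and 0.53. Downward, Tcea3, a transcription elongation factor, had the largest difference among called genes of this kind, at 19.3, 10.1 and 10.96 FPKM against 22.3, 26.8 and 25.1 FPKM (log2 difference -0.89, SE 0.20, adjusted p = 0.0351). Nrtn, which encodes the neurotrophic factor neurturin, was at 4.83, 3.91 and 4.51 FPKM against 6.38, 7.13 and 7.80 FPKM, and Ung, which removes uracil from DNA, at 5.66, 7.47 and 7.28 FPKM against 11.1, 9.29 and 11.04 FPKM. Pbk, a mitotic kinase, was at 19.6, 19.5 and 19.8 FPKM against 27.4, 25.1 and 28.4 FPKM. All of these kept apart between the sets. Hmgn5, Mphosph6, Gpatch4, Lipt2 and Avpi1 completed the 12 downward, with log2 differences from -0.47 (Hmgn5) to -0.39 (Avpi1).

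Ceacam1, an adhesion molecule of the epithelial surface, had the largest difference upward among called genes with a symbol and a mean of at least 5 FPKM, at 323, 463 and 421 FPKM in set 1 and at 265, 265 and 157 FPKM in set 2 (log2 difference 0.83, SE 0.21, adjusted p = 0.0463). Its close paralogue Ceacam2, examined after this value was seen, was at 1.54, 1.32 and 1.39 FPKM in set 1 and at 50.9, 129 and 105 FPKM in set 2, with no overlap and an adjusted p = 0.0613. The summed FPKM of the pair was 325, 464 and 423 in set 1 and 316, 394 and 262 in set 2 and overlapped between the sets. Ceacam2 also varied widely between mice of 1 group in A10-FMT set 1 (83.8, 4.53 and 96.2 FPKM), A10-FMT set 2 (1.07, 73.3 and 20.6 FPKM) and Con-FMT set 2 (148, 5.44 and 1.13 FPKM). The difference in Ceacam1 is therefore uncertain, since how reads shared by the 2 genes were assigned is not given.

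Of 10 tested genes whose proteins were also examined by antibody, 1 was called higher, Vil1, where 1.17% of all genes were called higher. Vil1 also belongs to the brush-border and enterocyte lists above. With 1 library left out, it was called only without replicate 3 of set 1. The junction genes Tjp1 (19.1, 17.4 and 20.4 FPKM against 23.6, 18.2 and 18.9 FPKM), Cdh1 (254, 242 and 251 FPKM against 248, 234 and 219 FPKM), Ocln (32.6, 30.7 and 34.4 FPKM against 36.3, 32.2 and 32.2 FPKM) and Ctnnd1 (113, 102 and 112 FPKM against 118, 107 and 96.6 FPKM) overlapped between the sets. So did the transcription factor genes Gata4 and Klf7 and the survival gene Bcl2l1, with adjusted p from 0.497 (Bcl2l1) to 0.777 (Klf7). Sox4 was at 8.15, 7.67 and 9.37 FPKM in set 1 and at 10.95, 12.2 and 9.99 FPKM in set 2, without overlap and not called (adjusted p = 0.0844). Of 34 cell junction genes tested, 1 was called higher, where 1.17% of all genes were called higher, and the median was -0.0023. It was F11r, which encodes the tight junction protein JAM-A, at 75.9, 73.5 and 72.6 FPKM against 65.8, 65.4 and 64.5 FPKM. With any 1 library left out F11r was not called. The most abundant, Epcam, was at 997, 985 and 975 FPKM against 971, 989 and 963 FPKM. In p53 target genes and in genes of heat shock and the unfolded protein response 0 were called by limma in 23 and 29 tested members, with 4 and 1 at an unadjusted p under 0.05 and medians of 0.01 and -0.03.

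The same contrast was made in the other FMT recipients to ask whether the difference between the sets went with A100-FMT. The Sa mice, which had busulfan and then saline, were not compared between the sets, so the answer does not extend to them. In Con-FMT, 0 of 11349 genes were called by limma between the sets (0.0%), with 1082 at an unadjusted p under 0.05. In A10-FMT 5196 were called (45.8%), 1298 higher in set 1 (11.4%) and 3898 lower (34.3%). This split was 2115 against 1853 with trimmed-mean scaling, 1553 against 2349 with quantile normalization and 2099 against 1808 with GC content and length taken out, and the median difference of all genes in A10-FMT went from -0.12 to -0.01, -0.05 and -0.0018. On the deposited values, of the 133 genes called higher in A100-FMT set 1, 75 were called higher in A10-FMT too, which is 56.4% of the 133 and 5.78% of the 1298, and 9 were called lower. Of the 230 called lower, 180 were called lower in A10-FMT, 78.3% of the 230 and 4.62% of the 3898, and 3 were called higher. In Con-FMT the differences of the 133 had a median of -0.06, with 38 above 0, and those of the 230 a median of 0.03, with 150 above 0. Counts of this kind in 2 groups do not test whether the groups differ, so the differences themselves were tested.

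The set difference of A100-FMT differed from that of Con-FMT in 107 genes (0.943%), 48 higher and 59 lower. The split was 60 against 12 with trimmed-mean scaling, 51 against 17 with quantile normalization and 203 against 125 with GC content and length taken out. The number fell to 0 without replicate 1 or 2 of A100-FMT set 1 or replicate 1 of set 2 and to 8 without replicate 3 of set 2, and it was 179 without replicate 3 of set 1. Among antiviral genes 3 of 41 passed, all with the higher difference in A100-FMT, and among cell cycle genes 3 of 42, all with the lower one. In Parp14, Con-FMT differed by -0.0020 between the sets and A100-FMT by 0.47 (interaction, limma adjusted p = 0.0364). In Mcm2, Con-FMT was at 26.6 ± 2.07 FPKM (SD, n = 3) in set 1 and 23.4 ± 0.943 FPKM (SD, n = 3) in set 2, the opposite order to A100-FMT (adjusted p = 0.0364). In Slc34a2, Con-FMT was at 31.6 ± 4.73 FPKM (SD, n = 3) in set 1 and 39.5 ± 2.66 FPKM (SD, n = 3) in set 2, again opposite to A100-FMT. The interaction passed in Apob (adjusted p = 0.0421), Heph, Clca4b and Slc7a7 and not in Dpp4 (adjusted p = 0.0701), Ifit1bl1 (adjusted p = 0.0676), Stat2 (adjusted p = 0.0967) or Hes1 (adjusted p = 0.0587). List medians for Con-FMT were -0.0020 for antiviral genes, 0.04 for cell cycle genes, -0.13 for the brush border and 0.01 for ribosomal proteins.

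Against A10-FMT the set difference of A100-FMT differed in 1230 genes (10.8%), 828 higher and 402 lower, and in 449 genes without replicate 3 of set 1, 571 without replicate 3 of set 2 and 768 without replicate 2 of set 2. The split was 406 against 562 with trimmed-mean scaling, 389 against 320 with quantile normalization and 266 against 564 with GC content and length taken out. The list counts that follow are on the deposited values. The medians of the absorptive lists lay above 0 in both groups. The brush-border median was 0.24 in A100-FMT and 0.72 in A10-FMT, and 16 of 32 members passed the test of the difference, all with the lower one in A100-FMT, as did 16 of 32 of fat uptake. Cell cycle genes had a median of -0.24 in A100-FMT and -0.44 in A10-FMT, and 8 of 42 passed, all with the difference less far below 0, or above it, in A100-FMT. In antiviral genes the medians were 0.26 and 0.30, and 3 of 41 passed in each direction. Of all 11349 genes, 828 passed higher and 402 lower. The upward count is near the share of all genes, so it is not read as a result about the list. Stat2, Parp14 and Dtx3l were higher in A100-FMT set 1 by 0.39, 0.47 and 0.25 and differed in A10-FMT by 0.05, 0.12 and 0.01 (adjusted p = 0.0377, adjusted p = 0.0258 and adjusted p = 0.029 for the differences), while Ifit1, Ifit1bl2 and Oasl1 had the larger difference in A10-FMT. Cck was lower in A100-FMT set 1 by 0.45 on the log2 scale and higher in A10-FMT set 1 by 0.28 (adjusted p = 0.00595 for the difference).

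**Figure D5:**
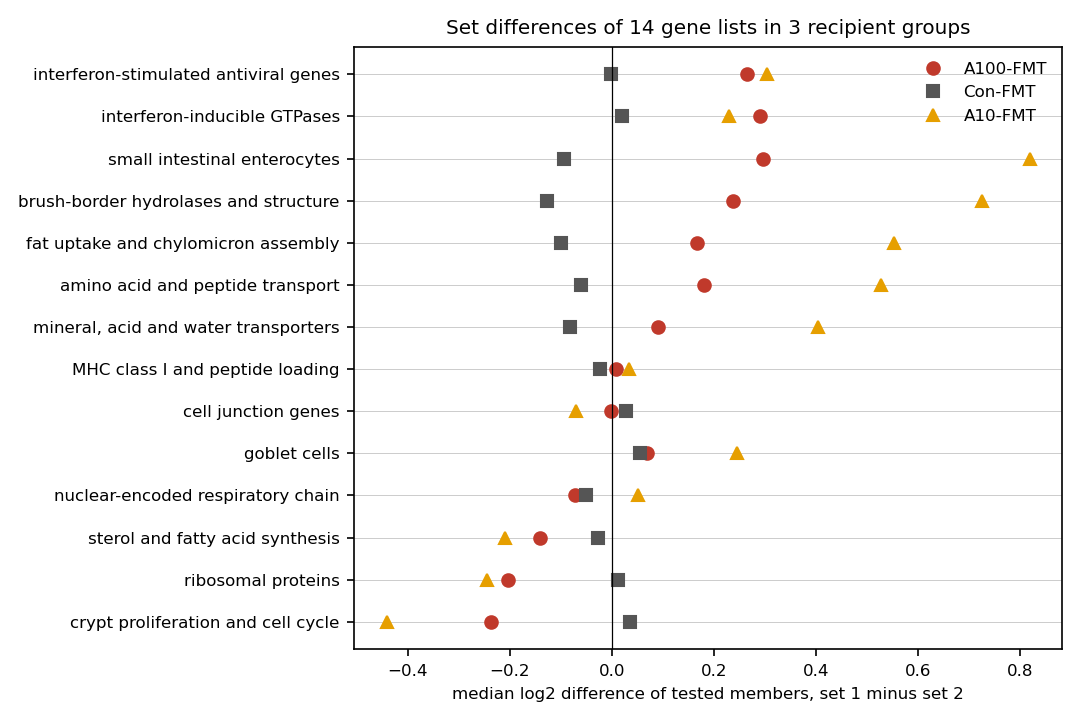
Symbols give the median log2 difference, set 1 minus set 2, of the tested members of 14 gene lists in A100-FMT (red circles), Con-FMT (grey squares) and A10-FMT (orange triangles). A100-FMT lies between the other groups in the absorptive, cell cycle and ribosomal lists, for example at 0.24 between -0.13 and 0.72 in the brush-border list, and near A10-FMT in the antiviral list.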

How the data were processed

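RNA-seq of the small intestine was taken as 1 deposited table of FPKM values, which the authors made from reads placed on mm10 according to the submitters' processing notes. The aligner and annotation are not given in the sources used here, and the study's methods speak of RPKM. The table has 19215 entries, of which 17725 have a gene symbol, and no counts. Too few low values fell on steps of 1 read to recover the depth, so depth is unknown and no counting interval is given. The 18 FMT libraries in 6 groups were fitted together on log2(FPKM + 1) with limma 3.58.1 in R 4.3.3 (eBayes with a trend), for the 11349 genes that averaged 1 FPKM or more. The contrasts were set 1 minus set 2 in each group, and the differences of A100-FMT from Con-FMT and from A10-FMT. P-values were adjusted by Benjamini-Hochberg with a threshold of 0.05, and genes past it are named called. Fold changes on this scale understate those of low genes. An exact permutation test of 3 against 3 cannot go below 0.1. The sample records give the replicates as separate libraries.

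Named genes were the 12 largest called differences in each direction with a symbol and a mean of at least 5 FPKM, the 2 called genes with the largest difference and the 2 with the highest FPKM in a list, genes of proteins the study measured, and the 4 largest differences between groups; not every one is printed, and 1 gene is not reported here. The members and the 45 lists were chosen with earlier results of these data known. Alternatives were another pseudocount (0.1), other filters, scalings, designs and weights, GC content and transcript length taken out, and each A100-FMT library left out. The Sa libraries entered only the fits of all 23 libraries; for 1 of them the title and the description name different columns, and both were tried. The steps were tested on simulated data in which 200 genes were changed 2-fold or 4-fold, with spread drawn separately for each gene. Of these, 93.5% and 98.5% were recovered, and 4.94% of calls were false. Nearly all differences called here were smaller than 2-fold, so this does not show how well such differences are found. Python 3.11.15 was used for the tables and motif search.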

Additional observations from a re-analysis of the deposited data

Results flagged for a closer look

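The set difference of A100-FMT differed from that of Con-FMT by the test of the difference itself in 107 genes, and from that of A10-FMT in 1230 genes (limma). Groups of 3 are too small for a test of single outlying mice.

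Against Con-FMT, the difference between the set differences was 1.01 on the log2 scale for Dusp6, 0.89 for Plekhn1, 0.85 for Smpdl3b, a phosphodiesterase of the cell surface, and 0.84 for Slc34a2. Each was higher in set 1 of A100-FMT and lower in set 1 of Con-FMT by group means, but Smpdl3b was not called within A100-FMT.

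Against A10-FMT, the largest differences were -2.73 for Gal3st2, a sulfotransferase, -2.41 for S100g, the calcium carrier calbindin-D9k, -2.35 for Akp3, an intestinal alkaline phosphatase, and -2.34 for Cyp3a11, a drug-metabolizing cytochrome. None of these 4 was called between the sets of A100-FMT, and all 4 were higher in set 1 of A10-FMT, by 1.54, 2.18, 2.22 and 2.21.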

How the results depend on the processing

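The 363 genes called between the A100-FMT sets became 127 with no filter on low values, 232 with trimmed-mean scaling, 200 without the trend, 950 with array quality weights, 1 with the 6 A100-FMT libraries alone, 0 with all 23 libraries under the columns of the Sa titles, and 0 to 221 with 1 library left out. The 107 genes of the difference from Con-FMT became 27 with no filter, 68 with quantile normalization, 0 and 172 with all 23 libraries under the titles and the descriptions, 625 with weights, 328 with GC content and length taken out, and 0 to 179 with 1 library left out. The 1230 genes of the difference from A10-FMT became 709 with quantile normalization, 397 with all 23 libraries under the titles, and 449 to 1388 with 1 library left out. Con-FMT had 1 call in place of 0 with all 23 libraries under either column and among genes with known GC content and length, an alternative chosen after seeing the data, and A10-FMT had 3450 in place of 5196 under the titles. The causes were not tested.

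Same-numbered mice of the 2 A100-FMT sets did not deviate together (correlations of -0.016, -0.28 and -0.065). Whether the numbers pair mice across the sets is not given, and groups of 3 are too small to decide it. With the replicate block, 0 genes were called in A100-FMT (2504 at an unadjusted p under 0.05), 1 in Con-FMT, 0 for the difference from Con-FMT and 463 for that from A10-FMT.

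Some genes that were not called changed sign between fits. With weights these were Akp3 (0.0371), Cyp3a11 (0.0721) and Zg16 (-0.0103), with trimmed-mean scaling Ocln (0.00019), and with quantile normalization Olfm4 (0.0054). With 1 library left out the log2 difference ran from -0.42 to 0.21 in Akp3, -0.0043 to 0.23 in Apoa1, -0.42 to 0.13 in S100g, -0.0406 to 0.10 in Ctnnd1, -0.45 to 0.0422 in Cyp3a11, -0.0806 to 0.0132 in Ocln, -0.0322 to 0.36 in Reg3g, -0.15 to 0.0261 in Tjp1 and -0.15 to 0.0437 in Olfm4. The medians of the antiviral, brush-border, fat uptake, cell cycle, ribosomal and sterol lists kept their sign in 19 of 19 alternatives.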
